A study of Mus musculus with 6 samples.

Results

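The cytosolic ribosome of mouse satellite cells was described here through the genes of its proteins. Members were protein-coding genes whose symbol starts with Rpl or Rps and a number, together with Rplp0, Rplp1, Rplp2 and Rpsa. Pseudogenes, the Rps6k kinases and Rps19bp1 were left out. The rule found 88 members among 27179 gene IDs, 54 of the large and 34 of the small subunit. Satellite cells, which are muscle stem cells, were isolated by flow cytometry from muscle of wild-type C57Bl/6N mice, at least 50000 per replicate. Mice had received a high-fat diet or a chow diet, which the series describes as obese and lean mice, and each diet has 3 libraries, called the high-fat and the chow libraries below. Age, sex and length of feeding are not given in the sources used here. No label says that the libraries came from separate animals, so p-values measure the spread between libraries, which may be technical.

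A ribosome is built from ribosomal RNA and a set of proteins, each needed in about the same number per particle. The large subunit joins amino acids and passes the growing chain through an exit tunnel, and the small subunit reads the messenger RNA. In mammals each protein is usually encoded by a single intron-bearing gene, while retrotransposition has scattered many intronless copies through the genome. Messenger RNAs of these proteins start with a run of pyrimidines, the 5′ TOP motif, through which mTORC1 and Larp1 control their translation. Quiescent satellite cells hold little cytoplasm, and ribosome production is known to increase when they are activated.

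Library totals ranged from 14930394 to 18217818 counts, and the level given below is counts per 1000000 counts, scaled by TMM (CPM). Library 1 of the high-fat diet and library 3 of chow stood apart at the ends of the first principal component, which held 29.4% of the variance of the 500 most variable genes, with scores of -43.1 and 60.8. Of the 13 satellite cell markers all were tested, and no gene of any marker list was called. Of these 13, 5 had a negative and 8 a positive log2 fold change (median 0.04), and their sums overlapped, at 5428 to 6607 CPM in the high-fat libraries and 5809 to 6529.7 CPM in the chow libraries. Pax7, the factor that defines these cells, read 171, 247 and 283 CPM in the high-fat libraries and 370.4, 405 and 429.7 CPM in the chow libraries (edgeR adjusted p = 0.180). Myofibre markers summed to 252 to 328 CPM in the high-fat libraries and 206 to 252 CPM in the chow libraries. Leukocyte markers summed to 7.61 to 25.2 CPM and 19.0 to 49.6 CPM, and Adgre1, Tyrobp and Cd3e were at 0 in all libraries. Endothelial markers summed to 240.0 to 399 CPM and 272 to 364 CPM, and those of fibro-adipogenic progenitors to 1136 to 1433 CPM and 1049 to 1224 CPM. Their part in the results below was not tested.

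Ribosomal protein genes took a smaller share of the high-fat libraries. They held 0.999%, 0.823% and 0.858% of the counts on the high-fat side and 1.31%, 1.09% and 1.16% in the chow libraries, or 0.893% ± 0.0933 against 1.19% ± 0.111 (SD, n = 3 each). The highest high-fat diet library lay below the lowest chow library. Fewer cells of a type and less RNA per cell cannot be told apart in RNA taken from many cells at once.

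**Figure D1:**
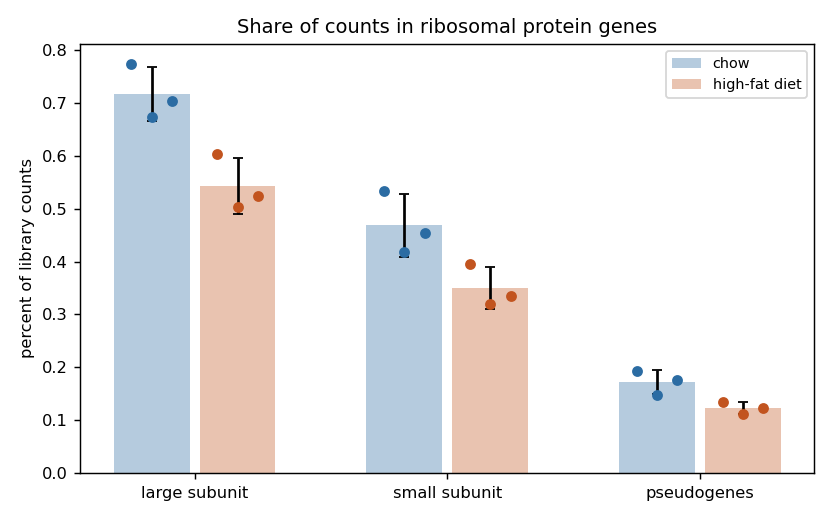
Percent of all library counts in large subunit genes, small subunit genes and pseudogenes with a named parent. Bars are means of 3 libraries, error bars are SD and points are libraries. In all 3 classes the high-fat diet points lie below the chow points.

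A total of 85 members had enough counts to be tested, 51 of the large and all 34 of the small subunit. The log2 fold change, high-fat diet over chow, was negative for 79 of the 85, or 92.9%, against 50.5% of all 13202 genes tested. Its median was -0.38 over the members and -0.01 over all genes tested. No member passed edgeR's quasi-likelihood test at a Benjamini-Hochberg adjusted p under 0.05, whereas 34 genes, or 0.258% of those tested, did, 22 of them (0.167%) lower with the high-fat diet. Without an adjustment 25 members, or 29.4%, had an edgeR p under 0.05, all of them lower. Of all genes tested, 522, or 3.95%, had such a p and were lower, and 488 were higher. The count of members was 14 without high-fat diet library 2, 16 without high-fat diet library 3 and 14 without chow library 1. DESeq2 called 3 of the 85 members, Rpl5, Rplp0 and Rps4x, and 198 of all 13202 genes. Of the members limma-voom called Rplp0 only, and 99 of all 13202 genes.

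All 3 high-fat diet values lay below all 3 chow values for 36 members, or 42.4% of those tested, against 7.87% of all genes. No member had all 3 values above those of chow, which 7.42% of all genes had. Genes of a level within the members' 10th to 90th percentile had a median of 0.03 over 3749 genes, and those of a like transcript length had 0.00 over 3525. Length here is that of a gene's longest annotated transcript, which can exceed the representative transcript used for levels per kb. Among genes of up to 500 bases by this measure, however, the median was -0.18 over 91 other genes and -0.45 over 7 members. The part of length in the members' values was not tested. With high-fat diet library 1 and chow library 3 left out together, the members' median was -0.44, 81 were negative and 22 had an edgeR p under 0.05. The first chow library was the highest of the 6 for 44 members, and the third high-fat diet library was the lowest for 37.

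**Figure D2:**
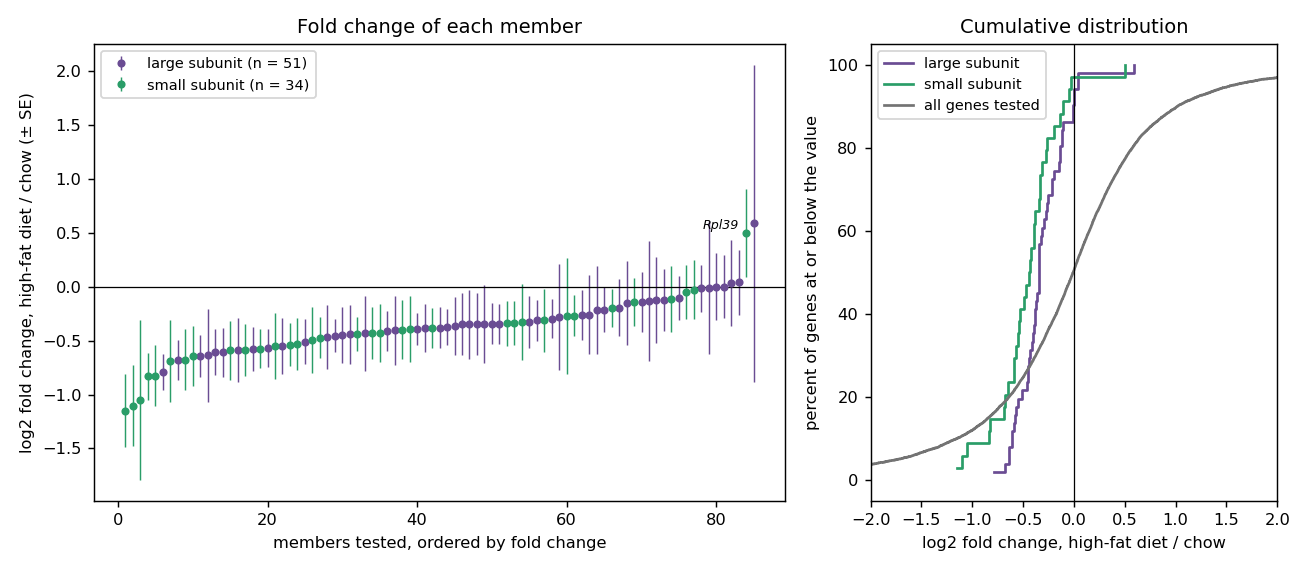
Left, log2 fold change (high-fat diet over chow) with its SE for each of the 85 members tested, ordered by value and coloured by subunit. Right, the percent of large subunit, small subunit and all tested genes at or below each log2 fold change, where both subunit curves lie left of the curve for all genes over most of their range.

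Genes that respond within minutes to stress or to the dissociation of tissue were also lower. Of the 33 immediate early and heat-shock genes listed, 31 had a negative log2 fold change, 8 of them called by edgeR, with a median of -0.74. Their sum was 30081 to 37319 CPM in the chow libraries and 15491 to 20255 CPM in the high-fat libraries. Nr4a1, an orphan nuclear receptor, went from 735 ± 127 CPM to 203 ± 52.7 CPM (edgeR adjusted p = 0.00297). Egr1, a zinc finger factor, fell by 1.33 and Btg2, an antiproliferative factor, by 1.63 on the log2 scale (edgeR adjusted p = 0.00474 and 0.00521). The part of this response in the ribosomal protein values was not tested.

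The stalk of the large subunit recruits the factors that drive elongation. Its base, Rplp0 (chr5:115559467-115563729, GRCm38), read 551, 439.7 and 454 CPM in the chow libraries and 305, 280.4 and 251 CPM in the high-fat libraries. The diets did not overlap, and chow was 1.73-fold higher, the member with the smallest p (log2 fold change -0.79, SE 0.17, edgeR adjusted p = 0.0948). Rplp1, which binds it as a dimer with Rplp2, read 403, 418 and 424 CPM in the chow libraries and 321, 297.9 and 290.1 CPM in the high-fat libraries (-0.45, SE 0.15, edgeR adjusted p = 0.399). For Rplp2 the values were 105, 72.4 and 64.0 CPM against 64.8, 63.2 and 59.8 CPM, so the diets overlapped (edgeR adjusted p = 0.890). The sum over the stalk genes ran from 930.4 to 1059.8 CPM in the chow libraries and from 600.5 to 691 CPM in the high-fat libraries.

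Rpl5 and Rpl11 carry the 5S ribosomal RNA into the large subunit, and as a free particle they bind and inhibit Mdm2, the ligase that targets p53. Rpl5 (chr5:107900508-107909005) read 225, 224 and 193 CPM in the chow libraries and 142, 125 and 133 CPM in the high-fat libraries. The lowest chow value was above the highest high-fat diet value, at a log2 fold change of -0.68 (SE 0.18, edgeR adjusted p = 0.224). Its partner Rpl11 read 50.7, 25.2 and 23.7 CPM in the chow libraries and 28.7, 26.8 and 30.0 CPM in the high-fat libraries. Only chow library 1 stood above the others, and without it Rpl11's log2 fold change turned from -0.22 to 0.23.

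The wall of the exit tunnel is lined by Rpl4, Rpl17 and Rpl39. Rpl4 had the highest CPM of all members, at 668, 644 and 653 in the chow libraries and 548, 463 and 489 in the high-fat libraries, without overlap (log2 fold change -0.39, SE 0.15, edgeR adjusted p = 0.490). Rpl17 read 80.8, 66.1 and 67.5 CPM against 63.3, 49.2 and 45.1 CPM, also without overlap. Rpl39 was the lowest member tested, at 6.28, 3.56 and 0.115 CPM in the chow libraries and 8.13, 5.76 and 1.08 CPM in the high-fat libraries. At that depth its log2 fold change of 0.59 had an SE of 1.47. Around the tunnel's rim, where chaperones and targeting factors dock, all 6 genes listed had negative values with a median of -0.43.

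The copies Rpl32l and Rpl37rt are described below. Apart from them and the large subunit genes named above, Rpl32 and Rpl12 had the smallest p in that subunit. Rpl32 read 208, 214 and 218 CPM in the chow libraries and 138, 144 and 149 CPM in the high-fat libraries (log2 fold change -0.57, SE 0.18, edgeR adjusted p = 0.322). Both groups were narrow and far apart, with SDs of 5.19 and 5.71 CPM. Rpl12, which lies at the foot of the stalk, read 139.7, 128 and 178 CPM against 109, 94.3 and 88.6 CPM (-0.61, SE 0.21, edgeR adjusted p = 0.429). Rpl8, a protein close to the catalytic centre, had the third highest level per length of the large subunit, 403 CPM per kb of transcript over the 6 libraries. Its values of 453, 343 and 356 CPM in the chow libraries and 352, 316 and 240.4 CPM in the high-fat libraries overlapped. Only Rplp1, at 719 CPM per kb, and the copy Rpl37rt, at 438 CPM per kb, were above it.

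**Figure D3:**
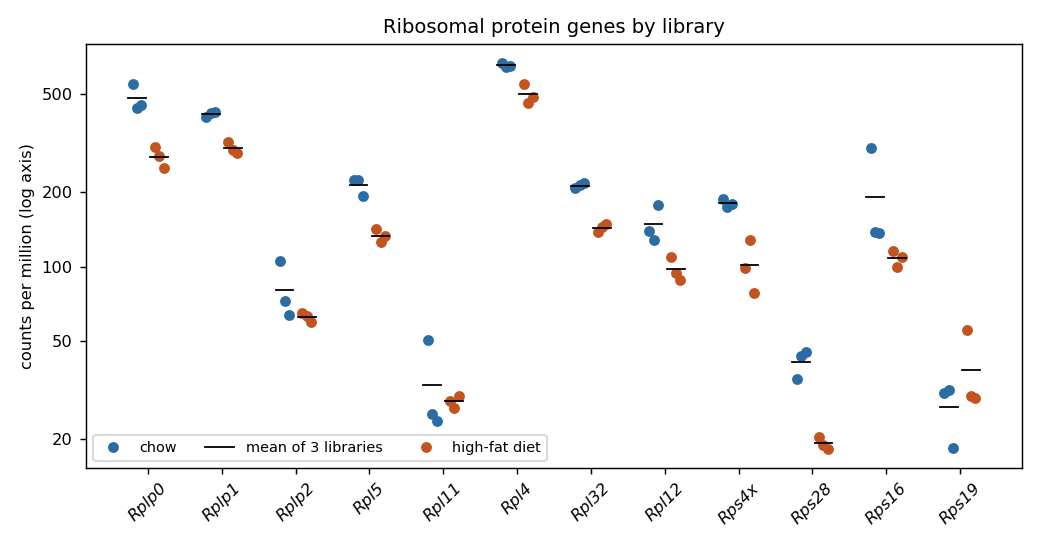
Level in CPM (log axis) of 12 ribosomal protein genes in each library. Points are libraries, numbered from left to right within a diet, and lines are means of 3. The diets overlap for Rplp2, Rpl11 and Rps19 only, chow library 1 lies far above the others for Rps16, and Rps19 has the opposite direction.

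In the small subunit, Rps4x, encoded on the X chromosome (chrX:102184941-102189391), had the smallest p. It read 189, 175 and 179 CPM in the chow libraries and 98.9, 128 and 78.1 CPM in the high-fat libraries. Chow was 1.78-fold higher with no overlap (log2 fold change -0.83, SE 0.22, edgeR adjusted p = 0.207). Rps28, at the exit of the messenger RNA channel, read 35.1, 43.6 and 45.02 CPM against 20.5, 18.9 and 18.3 CPM (-1.10, SE 0.37, edgeR adjusted p = 0.397). Of the 5 genes at the exit all were negative, with a median of -0.65 and 3 with an edgeR p under 0.05. Of the 85 members tested, 79 were negative and 29.4% had such a p. Of all genes tested, 3.95% had such a p and were lower. At the messenger RNA entry, Rps2 and Rps3 were negative as well, with a median of -0.34.

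Rps16, which reaches toward the decoding site, read 301.9, 138 and 136 CPM in the chow libraries and 116, 100.2 and 109.7 CPM in the high-fat libraries. The groups did not overlap, but without chow library 1 its log2 fold change went from -0.82 to -0.34. Rps15 had the third highest level per length of the small subunit, 312 CPM per kb, against 656 for the copy Rps27rt, which was the highest. Rps15 read 203, 163 and 179 CPM in the chow libraries and 137, 121 and 135 CPM in the high-fat libraries, without overlap (-0.47, SE 0.19, edgeR adjusted p = 0.540).

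Both subunits had negative medians. The median log2 fold change was -0.35 over 51 large and -0.44 over 34 small subunit genes. An edgeR p under 0.05 with a lower value was found for 12 of the 51 and 13 of the 34, against 3.95% of all genes tested. Without overlap below chow were 18 of the 51 and 18 of the 34, against 7.87% of all genes tested. The ratio of summed large to summed small subunit counts was 1.53, 1.58 and 1.57 in the high-fat libraries and 1.45, 1.61 and 1.55 in the chow libraries. Chow values spanned those of the high-fat diet, and the difference in log2 ratio was 0.02. It was 0.15 with each gene weighted equally and -0.02 without chow library 1.

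Of the members tested, 6 had a log2 fold change above 0, and none of these had an edgeR p under 0.05. Rps19, the small subunit protein most often mutated in Diamond-Blackfan anaemia, had the smallest p of these, with 55.5, 29.9 and 29.2 CPM in the high-fat libraries and 30.6, 31.8 and 18.5 CPM in the chow libraries (log2 fold change 0.50, SE 0.41). The high-fat diet library 1 was high and chow library 3 low, and without both the value was -0.07. Rpl7l1, Rpl34 and Rpl24 stood at 0.04, 0.04 and 0.00, all with overlapping diets. Across the 17 genes listed for Diamond-Blackfan anaemia, a failure of red cell production, 16 were negative with a median of -0.38. An edgeR p under 0.05 was found for 2 of the 17, against 29.4% of the 85 members tested. Of all genes tested, 3.95% had such a p and were lower.

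Paralogs by symbol fell into those expressed here and those not detected. Rpl3l, the form of Rpl3 in muscle fibres and heart, and Rpl39l, the form of Rpl39 in germ cells, had 0 counts in all libraries, which allows up to 0.195 CPM in the shallowest. Rpl10l, the testis form of Rpl10, had 1 count in the first high-fat diet library and 0 in the other 5. Their parents Rpl3 and Rpl10 read 221 ± 29.5 and 153 ± 43.6 CPM in the chow libraries, and 180.2 ± 14.8 and 127 ± 14.3 CPM in the high-fat libraries.

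Rpl22l1 read 48.8, 61.1 and 70.6 CPM in the chow libraries and 46.4, 54.7 and 62.6 CPM in the high-fat libraries, with overlap. Its parent Rpl22, an RNA-binding protein that represses Rpl22l1 in mice, read 212, 149 and 181 CPM against 98.1, 151 and 107 CPM (log2 fold change -0.61, SE 0.23, edgeR adjusted p = 0.469). The ratio of their counts was 0.230, 0.409 and 0.390 in the chow libraries and 0.473, 0.362 and 0.585 in the high-fat libraries, which overlapped. Rpl36al held 1.82 ± 0.243 times the counts of Rpl36a in the chow libraries and 2.24 ± 0.469 times in the high-fat libraries. For both genes, every read-length stretch of the coding sequence was also found in the transcript of another annotated gene. Of these stretches, 100% crossed no exon junction in Rpl36al, against 33.2% in Rpl36a. The counts of this pair are therefore uncertain, and the part of read placement in their ratio was not tested. The ratio of Rps27l to Rps27 was 0.284 ± 0.103 and 0.309 ± 0.127, and that of Rpl7l1 to Rpl7 was 0.122 ± 0.00686 and 0.169 ± 0.0602. The ratios of both diets overlapped for every pair with counts.

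**Figure D4:**
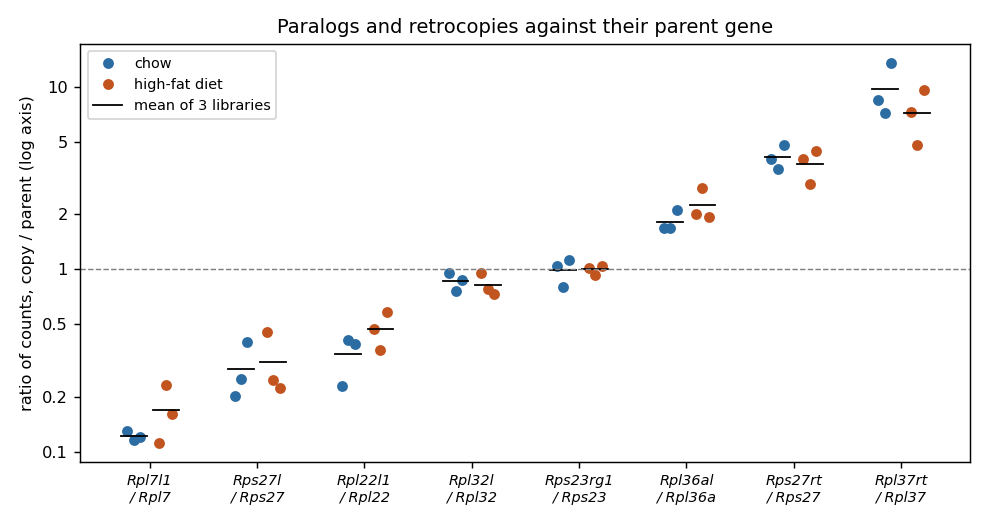
Ratio of the counts of a paralog or copy to those of its parent gene in each library (log axis). Points are libraries, lines are means of 3 and the dashed line marks equal counts. Rps27rt, Rpl37rt and Rpl36al lie above their parents in all libraries, and the diets overlap in every pair.

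Copies that arose by retrotransposition gave high counts. Rpl37rt read 467, 272 and 334 CPM in the chow libraries and 264, 215 and 240.5 CPM in the high-fat libraries, without overlap (log2 fold change -0.58, SE 0.20, edgeR adjusted p = 0.435). It held 8.43 times the counts of its parent Rpl37, whose diets overlapped at 55.5, 38.1 and 24.8 CPM against 36.5, 45.1 and 25.2 CPM. Rps27rt, a single exon on chromosome 9 (chr9:114982366-114982739), read 327, 242 and 312 CPM against 205, 184 and 202 CPM (-0.57, SE 0.18, edgeR adjusted p = 0.322), and held 3.95 times the counts of Rps27. Rpl32l, a single exon on chromosome 10, and Rps23rg1 were close to their parents, at 0.843 and 0.994 times the counts. Without these 4 copies the median of the members was -0.36.

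Some exon junctions of the parents stood unbroken in these copies. Of 8 junctions within the parents' coding sequence, 5 had the 30 bases around them in the copy's transcript. The 2 of Rps23 were not found in Rps23rg1, and exons 3 and 4 of Rpl32 were not found joined in Rpl32l. Only the transcript's own strand was searched, so a copy in the opposite orientation would not be found. Those found are printed to show where a read across a junction matches the copy without a gap, with lower case for the last 15 bases of the left exon and capitals for the first 15 of the right exon (GENCODE M21 transcripts).
Rpl32 exons 2 and 3, found in Rpl32l: tatgtgaaaattaagCGAAACTGGCGGAAA
Rpl37 exons 2 and 3, found in Rpl37rt: agcgcaagaggaagtATAACTGGAGTGCCA
Rpl37 exons 3 and 4, found in Rpl37rt: ctaccgcagattcagACATGGATTCCGTGA
Rps27 exons 2 and 3, found in Rps27rt: acgtgaaatgcccagGATGCTATAAAATCA
Rps27 exons 3 and 4, found in Rps27rt: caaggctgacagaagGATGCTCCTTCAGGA

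The parents lie on chromosomes 6, 15 and 3. Bowtie2, which the submitters' processing notes and the file headers name, does not split a read across an intron. The share of 75-base windows of the coding sequence that cross no junction had a median of 45.7% over the members, and Rps21 and Rpl41 had no such window. The level of a member per kb and this share had a Pearson r of 0.28 and a Spearman rho of 0.42 across 83 genes of the same libraries, and per kb of coding sequence 0.17 and 0.32, as a description only. Where a read of a parent was counted was not tested.

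Windows were also shared exactly with other genes. For 27 of the 86 members with coding windows, every window was found in the transcript of another annotated gene, and the median was 83.6%. The counts of these members are uncertain, since how reads with several matches and strand were handled is not given in the sources used here. Among the 10 members tested with under 25% of shared windows, 9 were negative and 7 had an edgeR p under 0.05, with a median of -0.53. Among the 73 with 25% or more, 68 were negative and 16 had such a p, with a median of -0.35. Of all genes tested, 3.95% had such a p and were lower. Rps3 had no shared window, while all windows of Rpl5 were shared, as were 66.7% of those of Rps4x and 39.8% of those of Rplp0.

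Pseudogenes named for a member held 0.123% ± 0.0104 of all counts in the high-fat libraries and 0.172% ± 0.0226 in the chow libraries. The files held 36, of which 31 were tested, 28 were negative, none was called and 6 had an edgeR p under 0.05, at a median of -0.52. Of all genes tested, 3.95% had such a p and were lower. Rpl13-ps6 alone read 252, 194 and 238 CPM in the chow libraries and 173, 181 and 170.2 CPM in the high-fat libraries. It had 13.2 times the counts of Rpl13, which read 16.8, 18.7 and 12.6 CPM against 17.7, 13.9 and 12.2 CPM. Rps27a-ps3 read 256, 152 and 229 CPM against 143, 116 and 125 CPM (log2 fold change -0.73, SE 0.22, edgeR adjusted p = 0.309), 2.43 times Rps27a. The 5 pseudogenes of Rpl31 held 3.68 times its counts, and the 2 of Rpl17 held 2.86 times. With pseudogene counts added to the parents, the median of the members was -0.39 and 30 had an edgeR p under 0.05.

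**Figure D5:**
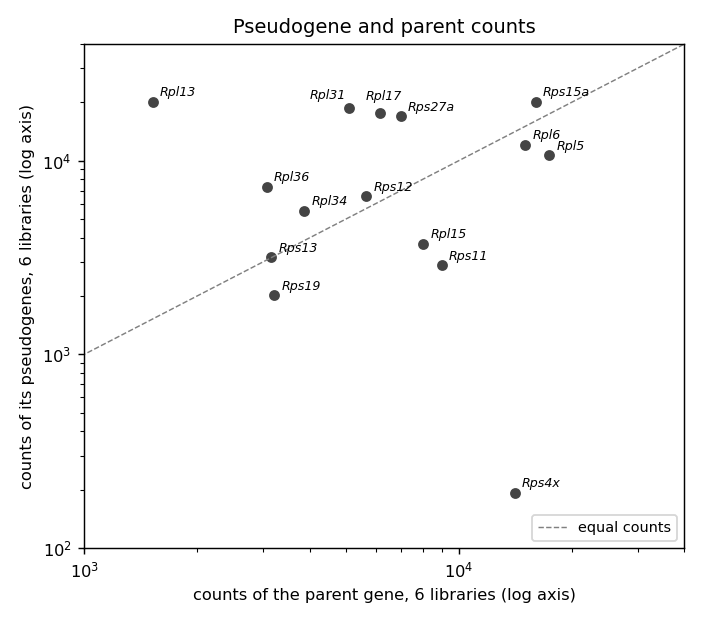
Counts of the pseudogenes of a member, summed over the 6 libraries, against the counts of the member itself (log axes, 1 point per parent gene). The dashed line marks equal counts, and Rpl13, Rpl31, Rpl17, Rps27a and Rpl36 lie well above it.

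The start sites of the members were searched for the 5′ TOP motif, here a C at the annotated start followed by at least 4 bases that are C or T, on the transcribed strand. RefSeq start sites (GRCm38.p6) were at hand for 68 members. The motif stood at a start of 15 of them, or 22.1%, against 3.01% of 27025 genes in the table. All 15 had a negative log2 fold change, with a median of -0.36. Of the 50 tested members with an entry and no motif, 44 were negative, with a median of -0.34. The windows below run from 10 bases before the start to 20 bases from it, with the run of pyrimidines in capitals. The first are shown for the motif, and Rps27 and Rps27rt because the copy holds 19 bases in a row of the parent's window.
Rpl15, chr14:18270967-18270996, minus strand: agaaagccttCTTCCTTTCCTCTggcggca
Rpl35, chr2:39005112-39005141, minus strand: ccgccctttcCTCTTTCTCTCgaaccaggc
Rps6, chr4:86857348-86857377, minus strand: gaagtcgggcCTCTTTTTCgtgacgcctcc
Rpl32l, chr10:20208429-20208458, plus strand: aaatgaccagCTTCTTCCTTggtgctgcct
Rps27, chr3:90213629-90213658, minus strand: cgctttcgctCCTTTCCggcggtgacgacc
Rps27rt, chr9:114982720-114982749, minus strand: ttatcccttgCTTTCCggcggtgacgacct

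The 3 members with the smallest p did not have the motif at the annotated start, and their windows, all in lower case, are given for contrast. An annotated start can differ by some bases from the start used in these cells.
Rplp0, chr5:115559457-115559486, plus strand: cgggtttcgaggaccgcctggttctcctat
Rps4x, chrX:102189372-102189401, minus strand: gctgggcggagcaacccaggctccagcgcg
Rpl5, chr5:107900518-107900547, plus strand: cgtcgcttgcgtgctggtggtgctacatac

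Ribosomal proteins under other symbols had the same direction. Rack1, a scaffold on the small subunit, read 304, 261 and 357 CPM in the chow libraries and 221, 219 and 188 CPM in the high-fat libraries, without overlap (log2 fold change -0.56, SE 0.18, edgeR adjusted p = 0.353). Fau, which encodes a small subunit protein as part of a fusion, stood at -0.09 (edgeR adjusted p = 0.999). Of 23 other messenger RNAs known to carry a TOP motif, Rack1 and Fau included, 18 were negative with a median of -0.27, and none was called. Eef2, the translocation factor, read 2160 ± 245 CPM in the chow libraries and 1568 ± 150.5 CPM in the high-fat libraries (-0.46, SE 0.14, edgeR adjusted p = 0.305). Eef1b2, an exchange factor of elongation, went from 281 ± 53.7 to 185 ± 9.72 CPM (-0.61, edgeR adjusted p = 0.322).

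Genes that make and assemble the ribosome lay on both sides of 0. Of 93 genes of pre-rRNA processing and subunit assembly, 44 were negative, with a median of 0.02, and none was called. Gtpbp4, a GTPase of large subunit assembly, had the smallest p, with 56.2 ± 5.63 CPM in the chow libraries and 107 ± 31.3 CPM in the high-fat libraries (log2 fold change 0.94, SE 0.27, edgeR adjusted p = 0.276). Riok3, a kinase of small subunit maturation, followed at 0.60 (edgeR adjusted p = 0.502). Of 17 genes of RNA polymerase I and its factors, 13 were negative at a median of -0.28, and none was called. Polr1d and Polr1b had the smallest p, at 0.63 and 0.87 (edgeR adjusted p = 0.631 and 0.823).

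In the pathways that control ribosome production no gene was called. Of the 24 tested of the mTORC1, S6 kinase, 4E-BP and Larp1 list, 14 were negative with a median of -0.04. Larp4b, an RNA-binding protein, read 33.7 ± 10.3 CPM in the chow libraries and 82.2 ± 19.3 CPM in the high-fat libraries (1.29, SE 0.32, edgeR adjusted p = 0.178), and Rps6ka3, a kinase of ribosomal protein S6, stood at 0.59. In the Myc network 6 of 10 were negative at a median of -0.22. Mycn went from 24.6 ± 12.5 to 3.84 ± 2.14 CPM (-2.68, SE 0.71, edgeR adjusted p = 0.207), and Mga, a Max partner, stood at -0.42. Of the p53 and Mdm2 list 7 of 14 were negative, at a median of -0.01. Cdkn1a, a p53 target that halts the cell cycle, went from 132 ± 26.4 to 73.6 ± 12.8 CPM (-0.84, SE 0.24, edgeR adjusted p = 0.279), and Eda2r, another target, stood at 0.80. Ribosome rescue and quality control had 11 of 15 negative at -0.22, led by Eif2ak4, the kinase that senses stalled ribosomes, at -0.94 (edgeR adjusted p = 0.470) and Abce1, a recycling factor, at 0.44. Of the 72 mitochondrial ribosomal protein genes tested, 39 were negative with a median of -0.12. Mrpl27 and Mrps27 had the smallest p, with 7.03 ± 6.96 and 17.96 ± 19.6 CPM in the chow libraries and 0.248 ± 0.216 and 3.57 ± 2.66 CPM in the high-fat libraries.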

How the data were processed

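RNA of sorted satellite cells was sequenced as 75-bp single reads after depletion of ribosomal RNA (RNA integrity number 8.5 to 9.4, per the labels' protocols). The deposited values are whole-number counts per Entrez gene ID, made with Bowtie2 on mm10 (GRCm38) and featureCounts, per the submitters' processing notes, and Bowtie2 is also named in the file headers. Versions, strand setting and treatment of multiply matching reads are not given in the sources used here. Symbols came from the RefSeq GRCm38.p6 table for 25275 IDs and from GENCODE M21 for 18 more, while 1886 had none. Representative GENCODE M21 transcripts gave the length for levels per kb. They also gave junctions and 75-base coding windows, for 86 members with a coding transcript. Genes of like length, the length bins and the length trend used the longest GENCODE M21 transcript of each gene instead.

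Counts were joined over 6 libraries, filtered with filterByExpr (minimum count 10), scaled by TMM and tested across all genes with edgeR 4.0.16 (R 4.3.3) by the two-sided quasi-likelihood F test on diet alone, with p adjusted by Benjamini-Hochberg over the 13202 genes tested. Log2 fold changes are high-fat diet minus chow with their SE, and per-gene values are CPM, mean ± SD of 3 libraries. DESeq2 1.42.0, limma 3.58.1 (voom), other scalings and filters, length and GC trends, a block and left-out libraries were the alternatives. The SE comes from the quasi-likelihood fit and includes the spread between libraries. The floor for genes without counts is 3 counts and covers counting error only.

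Members and gene lists were chosen with earlier results of these data known. Named were the 12 tested members with the smallest p, the 3 of each subunit with the highest level per length, up to 5 with a positive value, paralogs with parents, stalk, 5S particle and tunnel wall genes, Fau and Rack1, the called genes of each list with the smallest p (up to 3) or the 2 with the smallest p, and pseudogenes with over 5% of the family's pseudogene counts. Rpl10l and genes without counts were not tested. Some genes that this rule names are not reported here.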

Additional observations from a re-analysis of the deposited data

How the results depend on the processing

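The median log2 fold change of the members was negative in every alternative run, from -0.32 to -0.45 when each library was left out in turn, and -0.53 over the 10 members with under 25% of shared windows, a choice made after seeing the data. Genes called went from 34 to 163 without a low-count filter, 198 with DESeq2, 99 with limma-voom, 9 to 44 when leaving out each library, and 1 without high-fat diet library 1 and chow library 3 together. Members called went from 0 to 4 without a filter, 3 with DESeq2, 1 with limma-voom, 1 at an adjusted p under 0.1, and 0 whichever library was left out. The replicate block gave 45 genes called, 0 members called and a median of -0.38. Same-numbered libraries of the 2 diets correlated at 0.025, 0.035 and -0.026, and the others at -0.056 to 0.033. Values this close to each other cannot show whether the numbers pair the libraries, and no label says so. The log2 ratio of the subunits, 0.02, was 0.15 with genes weighted equally. Removing a length trend gave a median of -0.34, with 75 members negative and 17 with an edgeR p under 0.05. Removing a GC trend gave -0.37, with 77 negative and 23 with an edgeR p under 0.05.

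Of the single members named, 9 changed sign somewhere, and the cause was not tested. Without high-fat diet library 1 and chow library 3, Rps19 was -0.0683, Rpl39 -0.51, Rpl34 -0.21, Rpl24 -0.15 and Rpl22l1 0.10. When leaving out each library in turn, the ranges were -0.15 to 0.21 for Rpl7l1, -0.28 to 0.26 for Rpl34, -0.17 to 0.23 for Rpl24, -0.39 to 0.0018 for Rpl10, -0.39 to 0.18 for Rpl37 and -0.41 to 0.23 for Rpl11. Adding pseudogene counts turned Rpl34 to -0.14. Rpl24, 0.0015, was -0.0003 with RLE scaling and DESeq2, -0.0073 with TMM factors set without the family, and -0.0012 with pseudogenes added. Depth was least for Rpl39, the lowest member tested, whose SE was 1.47.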

Other observations

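Some members had a single library far from the others. Rps21, whose coding windows all cross a junction, read 50.7, 11.7 and 7.75 CPM in the chow libraries and 6.18, 7.74 and 19.9 CPM in the high-fat libraries. Chow library 1 lay far above the others, and the log2 fold change of -1.05 had an SE of 0.74. Rpl27 read 33.4, 21.9 and 4.82 CPM in the chow libraries and 21.0, 16.6 and 22.2 CPM in the high-fat libraries, low in chow library 3. Rps15a read 248 CPM in high-fat diet library 1, against 109 to 168 CPM in the other 5. These genes were chosen after their values were seen.

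Vim, the intermediate filament protein of mesenchymal cells whose messenger RNA is listed with the TOP class, had the opposite sign to the ribosomal proteins. It read 441 ± 96.3 CPM in the chow libraries and 653 ± 33.5 CPM in the high-fat libraries (log2 fold change 0.57, SE 0.18, edgeR adjusted p = 0.327). It was chosen after its values were seen. It was the only gene of that list with a positive value and an unadjusted edgeR p under 0.05, against 7 with a negative value. Of all 13202 genes tested, 488 had such a p with a positive value and 522 with a negative value.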
